A study of Mus musculus with 4 samples.

Results

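Cytosolic ribosomal protein genes were examined in mRNA-SEQ data of the embryonic cortex with and without the RNA-binding protein Qki. The members were the genes whose symbol is *Rpl* or *Rps* followed by a number and at most 1 letter, together with *Rplp0*, *Rplp1*, *Rplp2* and *Rpsa*. These were 81 of the 23038 genes in the expression tables, and 247 of the 38240 alternative splicing events in the splicing tables lay in them. The mouse cortices were taken at stage E14.5, with 2 samples labelled WT and 2 samples of a *Qk* conditional knockout (*Qk* cKO). *Qk* cKO embryos had both *Qk* alleles flanked by loxP sites (*Qk* fl/fl) and carried Nestin-Cre, whose promoter is active in neural progenitors. The samples labelled WT, called control below, were littermates that the study gives as *Qk* fl/fl without Cre, so both groups carry the loxP sites. Blood, vessel and meningeal cells of the tissue are not the intended targets of this Cre, and the labels do not say whether a sample was 1 embryo or a pool. Each label stands for a separate sample. The p-values of edgeR measure the spread between these samples, and those of Fisher's exact test counting error only.

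Ribosomal proteins are made in nearly equal amounts and are assembled with ribosomal RNA into the large (Rpl) and small (Rps) subunits of the cytosolic ribosome. Their mRNAs are short, abundant, and begin with a run of pyrimidines, the 5′ terminal oligopyrimidine tract, through which their translation follows the growth signals of the cell. Many of their genes have processed pseudogenes, copies of the spliced mRNA elsewhere in the genome. Qki5 is the nuclear isoform of Qki. It binds ACUAAC motifs in introns and alters the inclusion of nearby exons in neural stem cells.

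The libraries held between 37942046 and 42994832 tags on genes. *Qk* itself was measured at 21.1 and 21.7 RPKM (reads per kilobase of exon, scaled to library size) in control and at 32.5 and 34.2 in *Qk* cKO. A gene-level value does not show the loss of 1 exon. The junction from exon 2, the exon removed by Cre, to exon 3 had 635 and 565 tags in control and 63 and 68 in *Qk* cKO, so the libraries followed their labels. Markers of cortical radial glia, the progenitors of this tissue, summed to 1135 and 1041 RPKM in control and to 835 and 806 in *Qk* cKO. Such a sum depends most on the most abundant genes. Of the 7 genes, 5 had a log2 fold change below 0 and 2 above 0, and 1 was called, as lower. Those of cortical neurons summed to between 1011 and 1114 RPKM in the 4 samples. Erythroid markers summed to 596 and 591 RPKM in control and to 819 and 602 in *Qk* cKO. All 7 of these genes had a log2 fold change above 0, with 2 at an unadjusted edgeR p below 0.05 and 0 called. Markers of meninges and mesenchyme summed to 127 and 116 RPKM in control and to 116 and 155 in *Qk* cKO, with 3 of 5 higher at an unadjusted p below 0.05 and 0 called. *Ttr*, the marker of choroid plexus, had 758 and 609 RPKM in control and 561 and 779 in *Qk* cKO. The second *Qk* cKO sample was the highest for both. In such bulk samples fewer cells of a type and less RNA per cell cannot be told apart, and the part of these markers in the results below was not tested.

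The sequences that carry the main splicing result came from *Rps24*, a small-subunit protein gene that is needed for processing of the precursor of the small-subunit RNA and is mutated in Diamond-Blackfan anemia. The coding part of *Rps24* ends in alternative short exons. Exon 4 (chr14:24493383-24493493, plus strand, mm10) can be joined to an 18-nt exon (chr14:24494052-24494069), to a 20-nt exon (chr14:24495430-24495449) or directly to the last exon (from chr14:24495775). The 3 choices place the stop codon differently. In the lines below, read from the GENCODE M21 transcripts, capitals mark the stop codon that is used when exon 4 is joined to that exon.
18-nt exon: aaaTGAaatacctagcag
20-nt exon: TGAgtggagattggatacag
last exon, first 30 bases: ccaaaggagTAGatctgcggtgacttgatg
With the 20-nt exon the coding sequence has 130 codons before the stop, with the 18-nt exon 131, and with the last exon 133. Relative to the form with the 20-nt exon, the other protein forms therefore have 1 or 3 more residues at the end. The motif bound by Qki5, searched as ACTAAC in DNA, occurred once on the sense strand in the 3 introns between exon 4 and the last exon. It lay at chr14:24495556-24495561, with 106 bases between it and the 20-nt exon. The first bases of this intron, with the motif in capitals, are shown because they hold this match and follow the 20-nt exon.
intron after the 20-nt exon, chr14:24495450-24495581: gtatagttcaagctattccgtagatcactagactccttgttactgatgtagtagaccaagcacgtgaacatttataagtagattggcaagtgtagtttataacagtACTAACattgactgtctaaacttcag
On the other strand the letters occurred once in the first and once in the third of these introns. The search covered all 3 introns, of 558, 1360 and 325 bases. In windows of another kind, 3.23% of the 27025 promoter windows of 300 bases in the RefSeq table (GRCm38.p6) hold ACTAAC on the sense strand. These windows are shorter than the searched introns together and differ from them in base composition, so the share is no measure of how rare a match in these introns is. The match is a description of the sequence.

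In *Rps24* the exon that follows exon 4 changed in *Qk* cKO. The junction from exon 4 to the 20-nt exon had 4001 and 3165 tags in control and 2390 and 2130 in *Qk* cKO. The junction to the 18-nt exon had 36 and 32 tags in control and 125 and 104 in *Qk* cKO. The direct junction to the last exon had 79 and 68 tags in control and 201 and 148 in *Qk* cKO. Both *Qk* cKO samples lay below both controls in the first of these junctions and above both in the other two.

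As shares of the tags leaving exon 4, the 20-nt exon took 97.2% (95% Wilson interval 96.7 to 97.7) and 96.9% (96.3 to 97.5) in control. In *Qk* cKO it took 88.0% (86.7 to 89.2) and 89.4% (88.1 to 90.6). The 18-nt exon took 0.875% and 0.980% in control and 4.60% and 4.37% in *Qk* cKO. The group means were 0.927% ± 0.0746 and 4.49% ± 0.167 (SD, n = 2 each). Direct joining to the last exon rose from 2.00% ± 0.116 to 6.81% ± 0.840 (SD, n = 2 each). No interval of a control sample overlapped one of a *Qk* cKO sample for any of the 3 choices. The intervals cover counting error only.

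**Figure D1:**
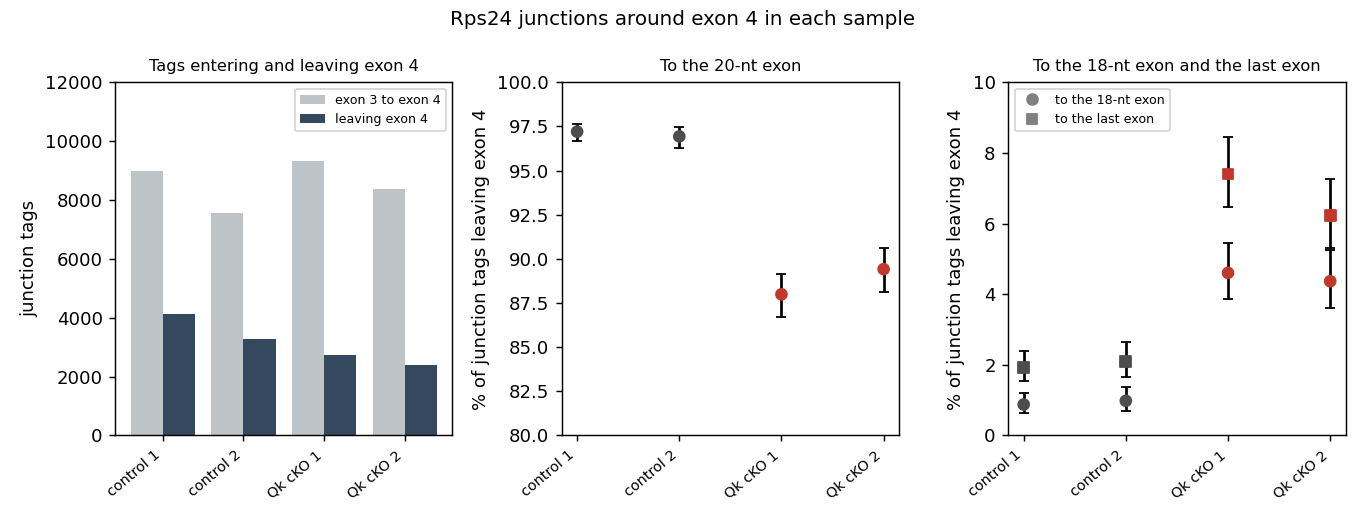
Junction tags of *Rps24* in the 2 control (grey) and 2 *Qk* cKO (red) samples, with tags on the junction from exon 3 to exon 4 and the sum of the 3 junctions leaving exon 4 on the left, and the share of leaving tags (%) that go to the 20-nt exon in the middle and to the 18-nt exon (circles) or the last exon (squares) on the right. Bars on the points are 95% Wilson intervals, the axis of the middle panel starts at 80%, and the *Qk* cKO samples lie at 88.0% and 89.4% against 97.2% and 96.9% for the 20-nt exon.

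The same choices were tested as 4 events of the splicing tables, by Fisher's exact test, with the isoform tags of the 2 samples of a group added up. The differences in inclusion, Δ*I*, were calculated as control minus *Qk* cKO. The 20-nt exon as a cassette exon gave a Δ*I* of 0.06 (FDR = 8.7e-39), and the 18-nt exon gave −0.02 (FDR = 4.0e-43). The mutually exclusive pair gave −0.02 (FDR = 5.5e-41) and the tandem pair 0.15 (FDR = 8.7e-36). The value of 0.15 comes from inclusion tags averaged over all junctions of the pair, and those of the 18-nt exon held few tags. In isoform tags, inclusion of the tandem pair was 98.1% in control and 93.8% in *Qk* cKO. The 4 events share most of their tags and are not independent. Fisher's test leaves out the variation between embryos. A test for an interaction between isoform and genotype in edgeR keeps it, and all 4 events of *Rps24* also passed there (FDR between 0.0016 and 0.0094).

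The level of the whole gene moved little, with 89.4 and 81.2 RPKM in control and 84.6 and 80.5 in *Qk* cKO (log2 fold change −0.03 ± 0.08 SE, FDR = 0.935 by edgeR). Tags on the junction from exon 3 into exon 4 numbered 8985 and 7551 in control and 9322 and 8360 in *Qk* cKO. The 3 junctions leaving exon 4 together gave 45.8 and 43.2 tags per 100 entering in control and 29.1 and 28.5 in *Qk* cKO. The junction from the 20-nt exon to the last exon also had fewer tags, with 3071 and 2390 in control and 1862 and 1606 in *Qk* cKO. The groups did not overlap in either measure. Other ends of the transcript after exon 4 are not counted by these events, and where the remaining tags went was not tested. These sums of junctions were formed after the values were seen and have no test of their own.

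With *Rps24* included, 119 of the 247 events in ribosomal protein genes had enough tags to be tested, and 18 of these in 8 genes passed Fisher's test. Outside *Rps24* 14 events in 7 genes passed. In the series 7.5% of the 11500 tested events passed. Several events repeat the same tags, so that the 18 come from 13 distinct sets of tags. With the interaction test of edgeR 4 events passed, all of them in *Rps24*, against 0.557% of the events of the series. Only 1 of the 119 tested and 18 called events, the tandem pair of *Rps24*, was called with a difference of at least 0.1. That difference depends on how its junctions are averaged. In the series 380 of the 11500 tested events (3.3%) were called with such a difference, out of 862 called. The 14 called events outside *Rps24* each differed by less than 0.1 and did not pass the interaction test.

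*Rpl17*, a protein at the exit of the tunnel for the growing peptide, had a cassette exon included at 0.89 and 0.88 in control and at 0.80 and 0.82 in *Qk* cKO (Δ*I* = 0.08, Fisher FDR = 0.0028). The interaction test gave FDR = 0.327 for it. An alternative 3′ splice site event of the same region had the same tags for its second isoform (Δ*I* = 0.08). The groups did not overlap for either event, as in 37.9% of the 11500 tested events of the series.

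*Rpl7a*, a large-subunit protein, retained an intron (event at chr2:26912671-26913022) at 0.16 and 0.14 in control and at 0.25 and 0.22 in *Qk* cKO (Δ*I* = −0.08, Fisher FDR = 0.0251). Interaction FDR was 0.683. Both *Qk* cKO samples lay above both controls. In *Rpl7*, 2 introns were retained at 0.0073 or less in every sample, and both called differences were under 0.003 in size.

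In *Rpl13a*, the mutually exclusive choice had the highest coverage of the members' tested events. Coverage is the smallest of the 2 isoform and 2 group sums of junction tags. The first isoform took 0.35 and 0.38 in control and 0.39 and 0.39 in *Qk* cKO (Δ*I* = −0.02, Fisher FDR = 2.3e-05), and the 2 controls differed from each other by more than the group difference. *Rps19*, another gene of Diamond-Blackfan anemia, used the main 3′ splice site at 0.99 and 0.99 in control and at 0.98 and 0.98 in *Qk* cKO (Δ*I* = 0.01, FDR = 0.0021). *Rpsa*, the laminin receptor homolog of the small subunit, had 5 called 3′ splice site events with identical tags and a Δ*I* of 0.0047. *Rpl22* had 2 called events with identical tags and a Δ*I* of 0.0002, and its samples overlapped. Inclusion there came from junction tags while the test used all isoform tags, so a called event may have a difference near 0.

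3 tested events differed by at least 0.1 without passing. *Rpl10a* used the first 5′ splice site of an alternative pair at 0.26 and 0.26 in control and at 0.43 and 0.32 in *Qk* cKO (Δ*I* = −0.12, FDR = 0.191). *Rps13* retained an intron at 0.23 and 0.14 in control and at 0.28 and 0.36 in *Qk* cKO (Δ*I* = −0.13, FDR = 0.229). *Rpl12* retained one at 0.79 and 0.76 in control and at 0.58 and 0.77 in *Qk* cKO (Δ*I* = 0.11, FDR = 0.216), so that its samples overlapped.

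Retained introns were the most frequent tested type, with 51 events. Retention was higher in *Qk* cKO in 35 of them (68.6%), against 60.6% of the 1928 retained introns tested in the series. The median Δ*I* of the 51 was −0.0065, and that of all retained introns −0.0052. The other events with the highest coverage were retained introns of *Rpl41* (2 events with identical tags), *Rpl10* and *Rpl4*, with differences of −0.0065, −0.03 and −0.0024. None of these 4 was called (Fisher FDR between 0.122 and 0.379).

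At the level of whole genes, most ribosomal protein genes were slightly lower in *Qk* cKO, and few of the single changes passed the test. Of the 81 genes, 80 had tags and were tested among 18834 genes with edgeR's quasi-likelihood test. The fold was below 1 in 72 and above 1 in 8. These counts were 47 and 33 without the second *Qk* cKO sample, and 52 and 28 without the first control sample. Of the 78 members with a mean of at least 1 RPKM 70 were negative, against 49.4% of all such genes. The median log2 fold change was −0.13, against 0.00 over all genes tested. 6 members fell past the thresholds (p below 0.01 and Benjamini-Hochberg FDR below 0.1) and 0 rose, while 0.377% of the tested genes were called lower and 0.207% higher. At an unadjusted p below 0.05 there were 28 lower members and 0 higher (4.43% of all tested genes were lower at this level).

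The 6 called members did not keep their calls when weakly expressed genes were removed before the fit. With edgeR's filterByExpr 0 of 78 members and 11 of 15447 genes passed (0.0712%), with 25 members at an unadjusted p below 0.05. With a mean RPKM of at least 1 in both groups 0 of 78 passed as well. The exact test of edgeR called 2, *Rpl28* and *Rpl36*, and DESeq2 called the 6 and *Rps23*. In the filterByExpr fit the 6 genes had FDR between 0.185 and 0.379.

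*Rpl28* had the largest fall among the members with a mean RPKM of at least 1. It was measured at 77.2 and 73.6 RPKM in control and at 51.0 and 53.2 in *Qk* cKO (log2 fold change −0.52 ± 0.11 SE, FDR = 0.0437). The 2 samples of each group lay close together. *Rpl36*, at 478 and 436 RPKM in control and 384 and 316 in *Qk* cKO, had the smallest p of the group (log2 fold change −0.37 ± 0.07 SE, FDR = 0.0349). *Rpl23a* is a protein beside the exit of the peptide tunnel. Its levels were 224 and 203 RPKM in control and 181 and 156 in *Qk* cKO (log2 fold change −0.33 ± 0.07 SE, FDR = 0.0713).

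*Rpl27a* lies deep in the large subunit. It had 45.2 and 42.9 RPKM in control and 31.3 and 33.5 in *Qk* cKO (log2 fold change −0.43 ± 0.10 SE, FDR = 0.0785). *Rps10* and *Rps29*, in the head of the small subunit, are genes of Diamond-Blackfan anemia. *Rps10* had 294 and 274 RPKM in control and 249 and 199 in *Qk* cKO (log2 fold change −0.33 ± 0.08 SE, FDR = 0.0812). *Rps29* had 101 and 108 RPKM in control and 80.3 and 70.2 in *Qk* cKO (log2 fold change −0.46 ± 0.11 SE, FDR = 0.0887). Both *Qk* cKO samples were below both controls for all 6 genes. Without either control sample none of the 6 passed, and without the second *Qk* cKO sample *Rpl27a* and *Rpl28* did.

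For *Rpl28*, *Rpl27a* and *Rps10* the RefSeq promoter table gives the sequence around the annotated start. The windows run from 10 bases before the start to 20 bases from it, and capitals mark the longest run of C and T that begins with C, the pattern of the oligopyrimidine tract.
*Rpl28*, chr7:4792955-4792984, plus strand: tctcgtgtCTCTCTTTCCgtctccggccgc
*Rpl27a*, chr7:109519185-109519214, plus strand: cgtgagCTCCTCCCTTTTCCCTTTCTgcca
*Rps10*, chr17:27635225-27635254, minus strand: gcgcacgCCCCTTCCTTTCCagcctccgcc
A C followed by at least 4 pyrimidines was found in this window in 38 of the 61 members with an entry in the table (62.3%), and in 35.8% of its 27025 genes. The search covered the strand of the gene.

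**Figure D2:**
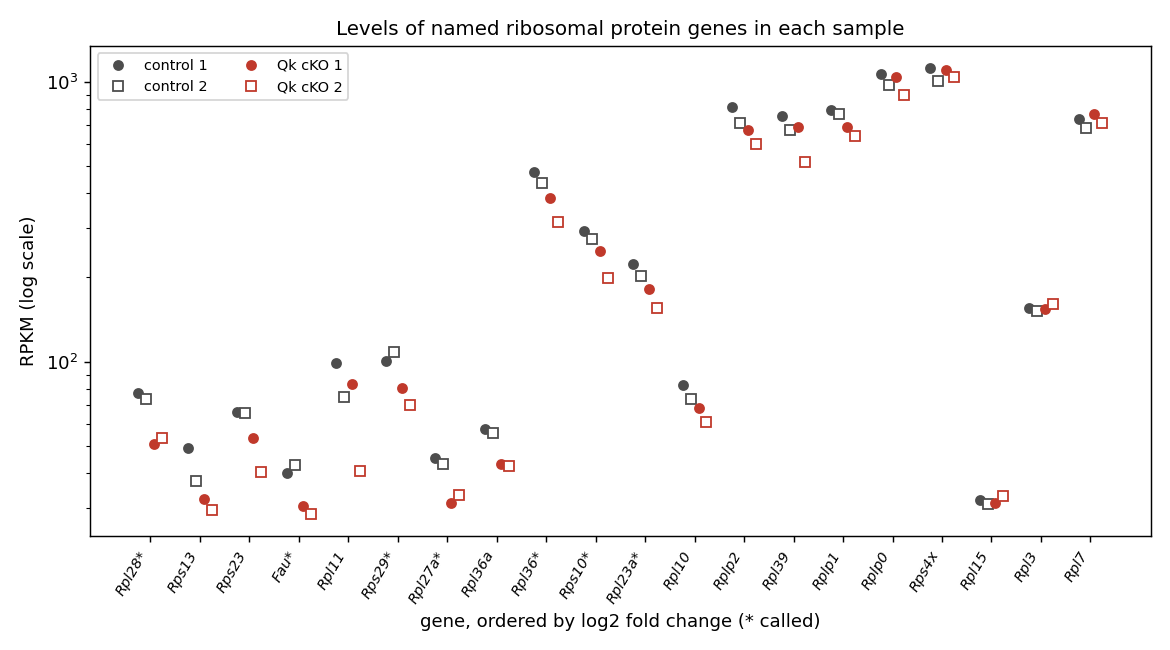
RPKM (log scale) of ribosomal protein genes in the 2 control (grey) and 2 *Qk* cKO (red) samples, with circles for replicate 1 and squares for replicate 2. The genes are those called (asterisk), large changes that were not called, the P stalk and the X-linked genes, together with *Fau*, in order of log2 fold change. In the called genes both *Qk* cKO samples lie below both controls, as for *Rpl28* with 51.0 and 53.2 against 77.2 and 73.6.

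Among the members that were not called and had a mean of at least 1 RPKM, *Rps13*, *Rps23*, *Rpl11* and *Rpl36a* had the most negative values. *Rps23*, a protein of the decoding center, was measured at 66.0 and 65.4 RPKM in control and at 53.3 and 40.5 in *Qk* cKO (log2 fold change −0.47 ± 0.13 SE, FDR = 0.151). *Rps13* had 49.3 and 37.4 RPKM in control and 32.3 and 29.6 in *Qk* cKO (FDR = 0.193). *Rpl36a* had 57.6 and 55.8 RPKM in control and 43.1 and 42.4 in *Qk* cKO (FDR = 0.180). The groups did not overlap for these 3. *Rpl11*, which binds the ribosomal 5S RNA and Mdm2, had values of 98.6 and 74.7 RPKM in control and 83.3 and 40.6 in *Qk* cKO, and its samples overlapped. The table gives this gene an exon length of 24 nt, so its values rest on a small part of the transcript.

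The positive values were small. *Rpl7* had 739 and 682 RPKM in control and 765 and 711 in *Qk* cKO (log2 fold change 0.07 ± 0.08 SE, FDR = 0.879). *Rpl3*, near the peptidyl transferase center, gave 0.05 ± 0.07 and *Rpl15* 0.04 ± 0.08 on the log2 scale (SE). On library-scaled counts (TMM), both *Qk* cKO samples were below both controls in 29 members and above them in 1, *Rpl3*. Among all genes tested these shares were 18.3% and 18.6%.

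The P stalk recruits the translation factors that hydrolyze GTP. Its base *Rplp0* was measured at 1068 and 976 RPKM in control and at 1038 and 898 in *Qk* cKO (log2 fold change −0.06 ± 0.09 SE, FDR = 0.894). The arms had lower values in both *Qk* cKO samples. *Rplp1* had 791 and 765 RPKM in control and 690.5 and 641 in *Qk* cKO (log2 fold change −0.21 ± 0.07 SE, FDR = 0.326). *Rplp2* had 813 and 711 RPKM in control and 673 and 597 in *Qk* cKO (log2 fold change −0.25 ± 0.08 SE, FDR = 0.285). None of the 3 passed the test.

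4 members are X-linked. *Rps4x* was at 1118 and 1005 RPKM in control and at 1098 and 1036 in *Qk* cKO (log2 fold change 0.02 ± 0.08 SE). *Rpl10*, which joins the large subunit late in its maturation, had 82.9 and 73.9 RPKM in control and 68.4 and 60.8 in *Qk* cKO (log2 fold change −0.27 ± 0.10 SE, FDR = 0.385). *Rpl39*, a small protein of the peptide tunnel, had 757 and 673 RPKM in control and 690.0 and 518 in *Qk* cKO (FDR = 0.470). With *Rpl36a*, these 4 had a median log2 fold change of −0.25 and 0 calls. *Xist*, the RNA of the inactive X chromosome, was above 57 RPKM in the first sample of each group and below 0.03 in the second, so each group held 1 sample of each kind.

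*Rpl32* had the highest mean RPKM, with 1367 and 1229 in control and 1283 and 1092 in *Qk* cKO. It was followed by *Rps14*, *Rpl26*, *Rps4x* and *Rps15*, with means between 1063 and 1162 RPKM, which lie within the spread of the samples. The table gives *Rpl26* an exon length of 222 nt, while its annotated transcript has 526 nt, so its level and its place in this order rest on part of the transcript. These 5 genes had log2 fold changes between −0.12 and 0.02, and none was called (FDR between 0.727 and 0.965). The 78 members with a mean of at least 1 RPKM ranged from 12.5 (*Rps12*) to 1243 RPKM. The value of *Rps12* rests on an exon length of 1839 nt, while its annotated transcript has 490 nt, so its place depends on this length.

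3 members were near 0 in the cortex. *Rpl10l*, the paralog of *Rpl10* that acts in the testis, had 0 tags in every sample. *Rpl39l*, also a paralog of the male germline, had between 0 and 0.151 RPKM. *Rpl3l*, the paralog of striated muscle, was listed at 0 in all samples but the second control, with 0.0331 RPKM. Summed markers of muscle and of germ cells were also low, at most 0.845 and 1.69 RPKM.

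Some ribosomal proteins have other names and lie outside the rule. *Fau*, which encodes the small-subunit protein Rps30 fused to a ubiquitin-like protein, fell from 40.1 and 42.6 RPKM in control to 30.5 and 28.6 in *Qk* cKO (log2 fold change −0.47 ± 0.11 SE, FDR = 0.0887). *Gnb2l1*, the gene of the scaffold protein Rack1, had a log2 fold change of −0.02 ± 0.08 (SE, FDR = 0.967).

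The medians of both subunits were close. The 46 large-subunit members had a median log2 fold change of −0.12, with 4 called lower. The 32 small-subunit members had −0.13, with 2 called lower. The 76 mitochondrial ribosomal protein genes had a median of −0.04 and 1 call, *Mrpl52*, which was lower (log2 fold change −0.54 ± 0.10 SE, FDR = 0.0248). The 46 translation factors had 0.03 and 0 calls. The 53 ribosome biogenesis factors had 0.04 and 1 call, which was higher. The 21 other mRNAs with an oligopyrimidine tract had −0.01 and 0 calls. The lists also differ in exon length. In the order given, these 4 lists had median exon lengths of 1101.5, 2775.5, 2623 and 1868 nt, against 719 nt for the members. With an offset for exon length fitted for each sample, their medians were −0.003, 0.04, 0.05 and 0.02, against −0.05 for the members. The difference between these lists and the ribosomal protein genes was not tested.

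The share of all gene tags that lay on ribosomal protein genes was 2.54% and 2.33% in control and 2.42% and 2.15% in *Qk* cKO. The group means were 2.44% ± 0.148 and 2.29% ± 0.191 (SD, n = 2 each), and the samples overlapped. The exact two-sided permutation test gave p = 0.667, where 2 against 2 samples cannot go below 0.333. Relative to the control mean, the members' median lay at 0.07 and −0.07 on the log2 scale in the control samples and at −0.02 and −0.23 in the *Qk* cKO samples. The second *Qk* cKO sample was thus the lowest, and the first lay between the controls. Without the second *Qk* cKO sample the median log2 fold change was −0.03, and without the first it was −0.24 with 24 calls.

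The change went with exon length, also in other genes. Among the genes with a mean RPKM of at least 1 that are not members, the median log2 fold change was −0.09 up to 500 nt (250 genes) and 0.03 above 5000 nt (3203 genes). Of the 963 other genes of up to 1000 nt, 67.6% had a negative value and the median was −0.08. The 55 members of this length had a median of −0.15, and 92.7% were negative. The 18 members of up to 500 nt had a median of −0.24 and were all negative. The 23 members above 1000 nt had −0.06. Across the 78 members Spearman's rho between exon length and log2 fold change was 0.50, with the libraries shared by all points. With the length of the annotated transcript in place of exon length, rho was 0.25.

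The trend with length was present between samples of one group. The slope of a sample's log2 level on exon length was −0.0196 and −0.0032 per doubling in control and 0.0018 and 0.0211 in *Qk* cKO. When an offset for length was fitted for each sample, the median of the members moved to −0.05 and that of all genes to 0.01. The fold was then below 1 in 60 members and above 1 in 20. 4 members were called (*Rpl27a*, *Rpl28*, *Rpl36* and *Rps10*), against 0.945% of all genes. *Rpl23a* and *Rps29* had FDR = 0.104 and 0.182 in this fit.

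**Figure D3:**
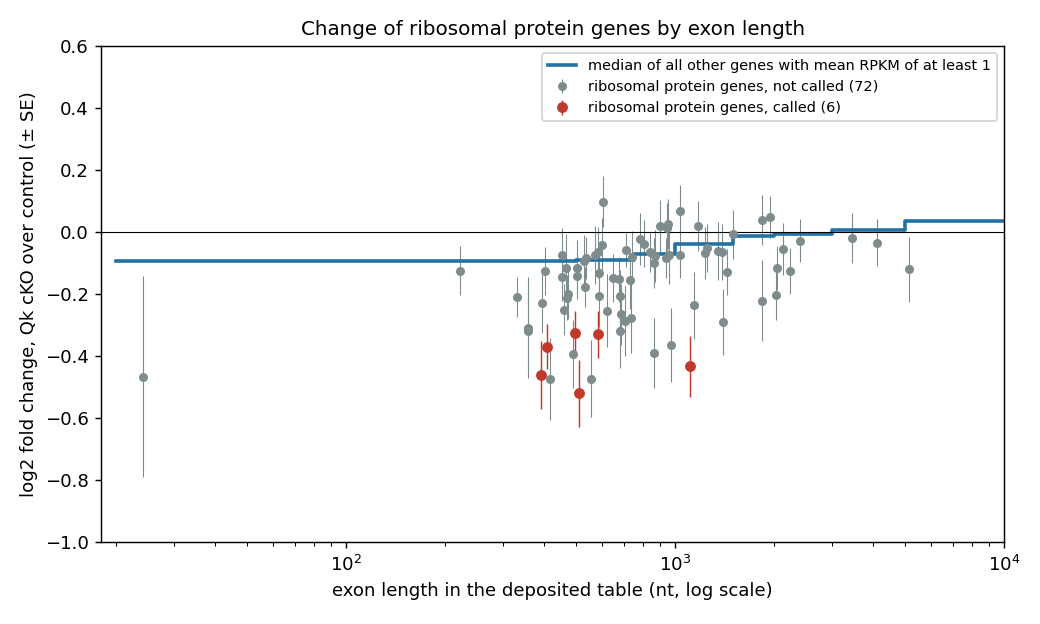
Log2 fold change (*Qk* cKO over control, ± SE) of the 78 ribosomal protein genes with a mean of at least 1 RPKM against exon length (nt, log scale), with called genes in red. The blue line is the median of the other genes in each interval of length, which runs from −0.09 up to 500 nt to 0.03 above 5000 nt, and most ribosomal protein genes shorter than 1000 nt lie below it.

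The change also differed with the level of the gene. The 25 members below a mean of 100 RPKM had a median log2 fold change of −0.29, and in 19 of them both *Qk* cKO samples were below both controls. The 22 members from 100 to 400 RPKM had −0.08, with 5 such genes. The 31 members of at least 400 RPKM had −0.08 as well, with 5 such genes. Among all genes with a mean RPKM of at least 1 in both groups, 19.3% were such genes. With the offset for length the medians were −0.20, −0.02 and −0.01. Spearman's rho between mean RPKM and log2 fold change was 0.51 over the 78 members, again with shared libraries. The limits of 100 and 400 RPKM were set after the values were seen, so the classes have no test.

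Among other genes of up to 1000 nt no such order was seen, with medians of −0.08 below 100 RPKM (831 genes), −0.08 from 100 to 400 (115 genes) and −0.10 above (17 genes). The members of up to 1000 nt had −0.34 (16 genes), −0.10 (14 genes) and −0.11 (25 genes) in the same classes. The low class held 3 called genes, *Rpl28*, *Rpl27a* and *Rps29*, as well as *Rps13*, *Rps23*, *Rpl11* and *Rpl36a*. Its exceptions were *Rpl15*, *Rpl18* and *Rps24*, with log2 fold changes of 0.04, −0.03 and −0.03. Their RPKM rest on exon lengths of 1841, 2395 and 4096 nt, while their annotated transcripts have 883, 679 and 468 nt. Their place in the low class depends on these lengths.

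**Figure D4:**
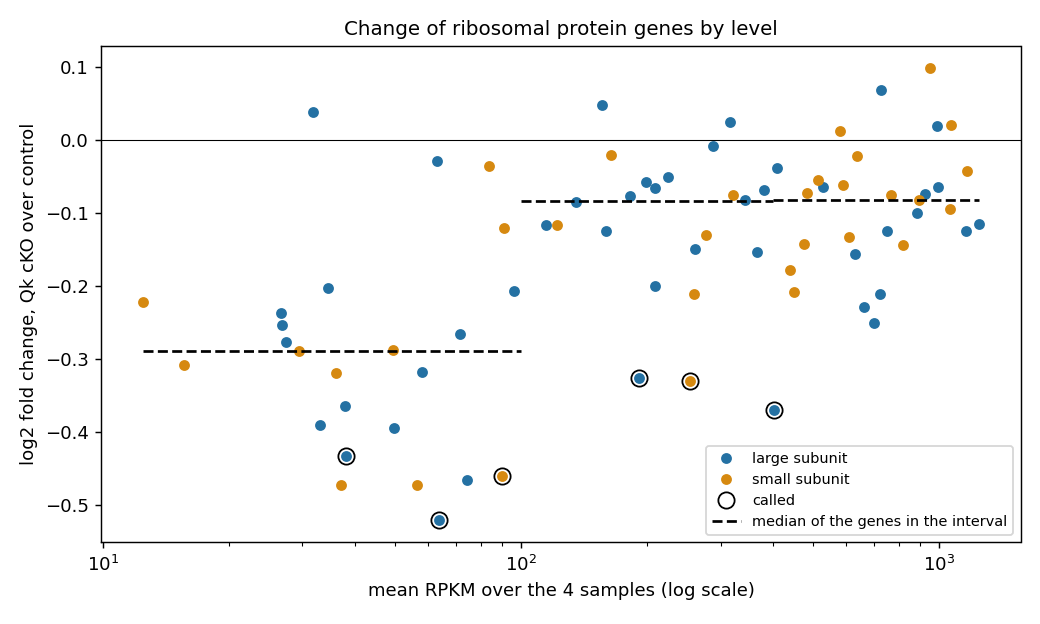
Log2 fold change (*Qk* cKO over control) of the 78 ribosomal protein genes against the mean RPKM of the 4 samples (log scale), in blue for the large and orange for the small subunit, with called genes circled. Dashed lines are the medians below 100 RPKM, from 100 to 400 and above 400, at −0.29, −0.08 and −0.08.

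The levels of these genes may depend on how reads from sequence shared with other annotated genes were assigned. In 74 of the 78 members at least 10% of the stretches of 50 bases in the annotated transcript also occur in another annotated gene. The share was 81.1% in *Rpl36*, 85.7% in *Rpl23a*, 78.2% in *Rps10*, 47.4% in *Rpl28*, 35.9% in *Rpl27a* and 35.8% in *Rps29*. Across the 78 members Spearman's rho of this share was −0.35 with mean RPKM and −0.14 with log2 fold change. The paired reads were longer than these stretches, so a shared stretch need not make a read ambiguous. The RPKM values may therefore be uncertain as levels, and the part of shared sequence in the changes was not tested. GC content of the transcript had a rho of 0.02 with log2 fold change.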

How the data were processed

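Poly-A RNA of the 4 cortices was sequenced as paired reads from an unstranded kit, and the authors used OLego for alignment (mm10, plus a database of exon junctions) and Quantas for quantification. The authors deposited estimated counts of tags per gene, the RPKM calculated from them, and estimated counts of isoform and junction tags per splicing event. Tags were rounded and tested with edgeR 4.0.16 (quasi-likelihood, TMM, R 4.3.3) over all genes with at least 1 tag. SE were calculated from the F statistic. Events with a coverage of at least 20 tags (the smallest of the 2 isoform and 2 group sums of junction tags) were tested with Fisher's exact test on summed tags, adjusted within each event type. Calls required p below 0.01 and FDR below 0.1. Genes named were all called members, the 4 largest falls and rises not called, the 5 highest, those below 1 RPKM, the P stalk, the X-linked members and *Rps24*. A few genes that this rule names are not reported here. Events named were those called, those with Δ*I* of at least 0.1 and the 5 with the highest coverage. The length offset was a loess fit per sample. Scripts were tested on simulated data. DESeq2 1.42.0 and other settings served as alternatives. The members and lists were chosen with earlier results of these data known. Exon positions and sequences came from GENCODE M21 (GRCm38, the build of mm10) and RefSeq GRCm38.p6.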

Additional observations from a re-analysis of the deposited data

How the results depend on the processing

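The number of called ribosomal protein genes depended on the settings. It was 6 as reported, 2 with edgeR's exact test, 0 with filterByExpr, 0 with a mean RPKM of at least 1 in both groups, 0 with the length offset and filterByExpr together (added after seeing the data), and 14 with the replicate block. Leaving out 1 sample gave between 0 and 24 calls. The lone sample of a group is then assumed to vary like the other group. The cause was not tested. The labels do not say that equal replicate numbers mark a litter or batch. Deviations of same-numbered samples correlated at 0.41 over expressed genes, −0.07 over autosomal ones and 0.33 over the members. Whether the numbers pair the samples was thus not settled. *Xist* was high in the first and very low in the second sample of both groups, so the block also separates the samples by *Xist*. The block, as a replicate block in a Cochran-Mantel-Haenszel test, gave 19 called events against 18. The median log2 fold change of the members was between −0.24 and −0.03 without 1 sample, and the ratio of tag shares (*Qk* cKO to control) between 0.884 and 0.995. The called splicing events numbered 4 with the interaction test of edgeR and between 12 and 19 without 1 sample. The 4 events of *Rps24* were called in every setting.

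Values that changed sign belonged to genes and events near 0. With the length offset, with it and the replicate block, and with it and filterByExpr, the log2 fold changes were 0.0301, 0.0316 and 0.0291 for *Rpl26*, 0.0053, 0.0044 and 0.0042 for *Rps15*, 0.0509, 0.0505 and 0.0499 for *Rps14*, and 0.0455, 0.0447 and 0.0444 for *Gnb2l1*. Without 1 sample the range was −0.25 to 0.0058 for *Rpl32*, −0.21 to 0.0097 for *Rps15*, −0.187 to 0.0455 for *Rplp0*, −0.160 to 0.0643 for *Rps14*, −0.107 to 0.0385 for *Rps24*, −0.0588 to 0.102 for *Rps4x*, −4.67 to 0.67 for *Rpl39l* and −0.106 to 0.0605 for *Gnb2l1*. The range of Δ*I* was −0.0033 to 0.0046 for both *Rpl22* events, −0.0149 to 8.0e-05 for both *Rpl41* events and −0.0060 to 0.00094 for the *Rpl4* event. The coverage minimum left 128 of the 247 member events untested and 119 tested, while 11500 of the 38240 events of the series were tested. An event can fall under it through a rare isoform as well as through low depth.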
